A study of Mus musculus with 28 samples.

Results

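The interferon-stimulated and RNA sensor genes described here are Ifih1, Oasl1, Stat2, Ifit1, Ifit3, Isg15, Mx1, Rsad2 and Cxcl10. Their members among the deposited peaks were the peaks whose nearest protein-coding gene span, within 50 kb on mm10, was one of these 9 genes. By this rule 26 of 63313 H3K27ac peaks and 7 of 8394 GR peaks belonged to them, and 25 and 7 of these passed the filter on low counts. Rsad2 had 8 H3K27ac peaks, Ifih1 5, Ifit3 4, Oasl1 3, Stat2 and Cxcl10 2 each, and Isg15 and Ifit1 1 each. GR peaks were assigned to Rsad2 (3), Ifit3 (2), Isg15 (1) and Oasl1 (1). Mx1 is listed as a transcribed pseudogene in the RefSeq table used and therefore had no member peak, so its span is described apart.

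The study used chromatin immunoprecipitation sequencing in macrophages grown from bone marrow of male C57BL/6 mice of 8 to 10 weeks, differentiated for 5 days in medium with L-cell conditioned supplement. The treatments were 500 nM of corticosterone (Cort, which mouse adrenals secrete), 100 nM of dexamethasone (Dex, its synthetic counterpart), interleukin-4 (IL4, the cytokine of alternative activation) at 10 ng/ml, or vehicle. Treatment lasted 24 h, and the titles of the H3K27ac vehicle libraries give no time. Acetylated lysine 27 of histone H3 (H3K27ac), which marks active promoters and enhancers, was profiled in 3 libraries of each group, and the receptor of both steroids, the glucocorticoid receptor (GR), was profiled in 4 Cort, 4 Dex, 3 IL4 and 4 vehicle libraries. GR libraries came in batches 1 and 2, with all IL4 libraries in batch 2. The labels do not say that libraries came from separate animals, so each p-value covers the spread between these libraries, which may be technical.

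Type I interferon binds a receptor on the cell surface and activates a complex with STAT2 and IRF9 that binds interferon-stimulated response elements (ISREs) in front of target genes. Macrophages keep a low tonic activity of this pathway, and RNA of viruses in the cytosol, sensed by MDA5 (the product of Ifih1) and its relatives, raises it strongly. Among the target genes, Isg15 encodes a ubiquitin-like protein, Ifit1 and Ifit3 bind or help to bind foreign RNA, Rsad2 encodes viperin, which makes a chain-terminating nucleotide, Mx1 encodes a dynamin-like GTPase, Oasl1 restrains translation of Irf7, and Cxcl10 encodes a chemokine that attracts T cells. Glucocorticoids are known to restrain this programme, and IL4 signals through STAT6.

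Counts in peaks were 6829787 to 15695771 for each H3K27ac library and 900063 to 1981582 for each GR library. A single peak held 45.4 to 59.2% of the GR counts of a library. All 10 macrophage marker genes had H3K27ac peaks, whose strongest peaks had a median of 178 normalised CPM (counts scaled to library size and composition). Of 7 neutrophil markers 4 had a peak (median 5.94 CPM), and Ly6g, Mpo and S100a9 had none. Of 6 T and NK cell markers 3 had a peak (median 8.22 CPM), of 4 B cell markers 2 (57.5 CPM) and of 6 fibroblast markers 1 (31.6 CPM). All 6 dendritic cell markers had one (median 28.8 CPM). Summed H3K27ac at the macrophage markers was 2454 to 2834 CPM in Cort, 2407 to 2780 CPM in Dex, 2011 to 2298 CPM in IL4 and 2193 to 2503 CPM in vehicle libraries.

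The DNA before the gene starts is shown because most of these promoters share 1 short element. In the 250 bases before the start, the ISRE core, GAAA and GAAA with any 2 bases between them on either strand, was found at 6 of the 8 genes with a promoter entry and at 2.98% of 32841 RefSeq promoters. Ifih1 and Oasl1 were the genes without it. The GR element, GNACA and TGTNC with any 3 bases between them, was found at 0 of the 8 (0.387% of all promoters), and the GR hexamer AGAACA, searched on both strands, at 0 of 8 (16.1%). The STAT6-type element, TTC and GAA with any 4 bases between them, was found at Stat2 alone (5.85% of all promoters). The GR and STAT6-type elements read the same on both strands. Sequences are from RefSeq GRCm38.p6 (mm10), 5′ to 3′ on the strand of the gene, and capitals mark every ISRE core match.
Isg15 (chr4:156200819-156201068, minus strand): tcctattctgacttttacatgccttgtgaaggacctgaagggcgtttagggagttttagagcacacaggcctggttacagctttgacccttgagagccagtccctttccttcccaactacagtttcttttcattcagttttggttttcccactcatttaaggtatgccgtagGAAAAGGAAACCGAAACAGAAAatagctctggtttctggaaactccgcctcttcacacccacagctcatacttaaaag
Ifit1 (chr19:34640639-34640888, plus strand): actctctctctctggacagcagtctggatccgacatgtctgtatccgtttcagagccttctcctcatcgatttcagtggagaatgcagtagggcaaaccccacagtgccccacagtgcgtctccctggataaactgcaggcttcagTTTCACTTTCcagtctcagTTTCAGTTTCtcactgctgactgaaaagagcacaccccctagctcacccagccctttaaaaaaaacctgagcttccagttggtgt
Ifit3 (chr19:34583279-34583528, plus strand): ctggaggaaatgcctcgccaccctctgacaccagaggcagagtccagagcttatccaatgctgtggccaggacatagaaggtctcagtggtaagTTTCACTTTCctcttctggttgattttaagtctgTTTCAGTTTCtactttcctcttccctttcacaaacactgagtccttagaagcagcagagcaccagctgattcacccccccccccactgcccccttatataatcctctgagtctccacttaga
Rsad2 (chr12:26456453-26456702, minus strand): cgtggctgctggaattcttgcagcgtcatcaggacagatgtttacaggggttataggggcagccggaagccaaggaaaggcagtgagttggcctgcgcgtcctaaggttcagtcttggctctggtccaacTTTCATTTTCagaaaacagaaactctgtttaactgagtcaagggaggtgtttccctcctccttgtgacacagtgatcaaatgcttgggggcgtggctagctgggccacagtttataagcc
Cxcl10 (chr5:92348890-92349139, minus strand): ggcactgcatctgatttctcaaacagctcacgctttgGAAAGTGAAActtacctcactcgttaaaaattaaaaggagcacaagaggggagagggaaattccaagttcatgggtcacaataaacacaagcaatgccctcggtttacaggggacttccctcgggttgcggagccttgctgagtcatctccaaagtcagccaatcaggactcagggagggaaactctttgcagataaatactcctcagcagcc
Ifih1 (chr2:62646256-62646505, minus strand): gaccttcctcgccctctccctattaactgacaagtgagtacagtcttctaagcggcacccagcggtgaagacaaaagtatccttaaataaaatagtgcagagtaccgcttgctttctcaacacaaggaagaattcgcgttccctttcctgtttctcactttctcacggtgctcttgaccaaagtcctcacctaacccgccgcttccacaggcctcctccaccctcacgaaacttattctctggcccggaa
Isg15 has 3 overlapping matches between bases 78 and 57 before the start. Ifit1 has 2 matches, which end 95 and 76 bases before the start, and Ifit3 also has 2, which end 147 and 113 bases before it. Rsad2 has 1 that ends 111 bases before the start, and Cxcl10 has 1 that ends 204 bases before it. The same window of Ifih1 has none. A match is a description of letters, and binding to it was not measured.

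H3K27ac at the gene starts differed far more between replicate numbers than between treatments. Each of the 8 genes had a peak at its start, and at every one of them replicate 2 was the highest of the 3 libraries in all 4 groups. Normalised H3K27ac at Isg15 (chr4:156197029-156202050) was 23.0, 96.0 and 25.6 CPM in Cort replicates 1, 2 and 3, and 25.9, 99.3 and 24.9 CPM in Dex. It was 25.0, 76.4 and 24.6 CPM in IL4 and 26.5, 91.8 and 29.5 CPM in vehicle replicates 1, 2 and 3. The libraries therefore sorted by number, and the treatments overlapped at this promoter, which also overlaps Agrn.

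The IFIT promoters had the same split. Ifit1 (chr19:34639793-34641912, a peak that also overlaps Ifit1bl1 and Ifit1bl2) had 3.40, 35.7 and 7.86 CPM in Cort and 5.87, 36.2 and 5.99 CPM in Dex. In IL4 it had 5.55, 28.1 and 4.67 CPM, and in vehicle 7.80, 31.5 and 7.82 CPM. Replicate 2 was several times the other libraries of its group in each case. Ifit3 (chr19:34582366-34584635) had 6.66, 39.8 and 7.29 CPM in Cort, 7.10, 38.9 and 7.97 CPM in Dex, 7.15, 30.4 and 7.38 CPM in IL4, and 8.79, 37.3 and 10.0 CPM in vehicle. Ifit3 has a close copy, Ifit3b, and the treatment of reads that match both is not given in the sources used here. Rsad2 (chr12:26454658-26457337) had 5.67, 32.0 and 6.51 CPM in Cort, 6.12, 32.6 and 7.89 CPM in Dex, 5.55, 29.0 and 6.16 CPM in IL4, and 6.93, 24.3 and 8.06 CPM in vehicle. Here too no library of replicates 1 or 3 reached any library of replicate 2.

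Cxcl10 (chr5:92346932-92350032, a peak that also overlaps Art3) had the lowest H3K27ac of the 8 starts per kb. Its values were 4.54, 30.3 and 2.81 CPM in Cort, 5.51, 39.9 and 3.73 CPM in Dex, 3.94, 12.2 and 1.76 CPM in IL4, and 5.57, 17.5 and 4.34 CPM in vehicle. Within replicate 2 the Dex library was the highest and the IL4 library the lowest. Oasl1 (chr5:114921290-114924712) had 49.2, 89.2 and 32.3 CPM in Cort, 45.6, 95.3 and 30.0 CPM in Dex, 39.6, 73.8 and 20.1 CPM in IL4, and 47.9, 76.3 and 26.1 CPM in vehicle. Replicate 1 was also above replicate 3 in every group at Oasl1 and at Cxcl10.

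The sensor and the transducer followed. Ifih1 (chr2:62643624-62647264) had 20.4, 68.5 and 22.2 CPM in Cort, 23.5, 70.1 and 21.1 CPM in Dex, 17.4, 55.1 and 22.5 CPM in IL4, and 20.1, 59.9 and 22.8 CPM in vehicle. Stat2 (chr10:128269495-128272622, overlapping Apof) had 20.6, 72.5 and 25.9 CPM in Cort, 23.9, 71.5 and 23.4 CPM in Dex, 29.0, 70.1 and 28.4 CPM in IL4, and 24.6, 61.8 and 25.6 CPM in vehicle. At both genes the 4 libraries of replicate 2 lay above all 8 other libraries.

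**Figure D1:**
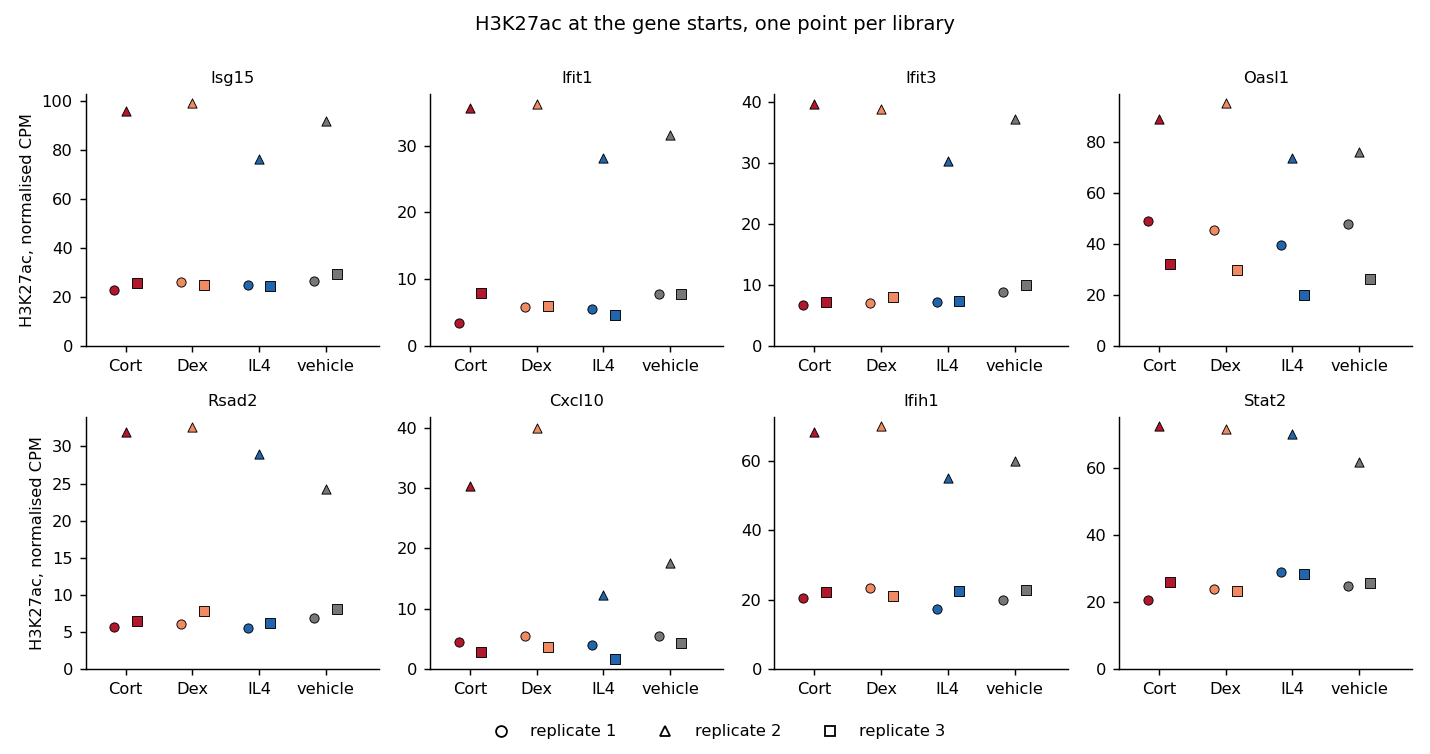
Normalised H3K27ac (CPM) at the peak over each gene start, 1 point per library, in Cort, Dex, IL4 and vehicle macrophages, with 3 libraries per group and the marker giving the replicate number. Replicate 2 is the highest library of its group in every panel, for example 96.0, 99.3, 76.4 and 91.8 CPM at Isg15.

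Summed over the 8 starts, H3K27ac was 464, 484, 375 and 400 CPM in replicate 2 of Cort, Dex, IL4 and vehicle, while the libraries of replicates 1 and 3 ranged between 116 and 148 CPM. On the log2 scale, replicate 2 minus the mean of replicates 1 and 3, averaged over the groups, was 1.25 (Oasl1) to 2.53 (Cxcl10), with a median of 1.98. Over all 59881 tested peaks the median of this difference was -0.03, and over the 10506 tested peaks at any gene start it was 0.04. Replicate 2 was the highest in all 4 groups at 8 of 8 starts and at 16 of the 25 tested peaks of these genes, against 12.4% of all tested peaks and 17.1% of those at gene starts. The difference was looked for after the values had been seen, and it has no test.

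Other genes of the pathway had the difference to unequal degrees. Its median was 1.44 over 39 start peaks of other interferon-stimulated genes, 0.65 over 13 start peaks of sensors and adaptors, and 0.13 over 14 start peaks of receptors and transducers. Mx1 had it as well: the 1 H3K27ac peak over its span (chr16:97460926-97464286, assigned to Fam3b) had 43.6 to 61.5 CPM in the libraries of replicate 2 and 4.46 to 8.05 CPM in the others. What the libraries of a number share (mice, day, reagents) is not given by the labels. Library totals were 6829787 to 7910848 counts in replicate 1, 12666689 to 15109142 in replicate 2 and 9076194 to 15695771 in replicate 3. Summed H3K27ac at the 10 macrophage markers was 2011 to 2454 CPM in replicate 1, 2298 to 2780 CPM in replicate 2 and 2228 to 2834 CPM in replicate 3. At the 3 T and NK cell markers with a peak it was 22.4 to 26.4, 27.6 to 35.0 and 20.9 to 23.6 CPM, so replicate 2 lay above the others. The B cell, dendritic cell, fibroblast and neutrophil sums overlapped between numbers, each with its highest library in replicate 2. The neutrophil sum also had its lowest library there. The part of depth, cell makeup or other shared conditions in this difference was not tested.

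**Figure D2:**
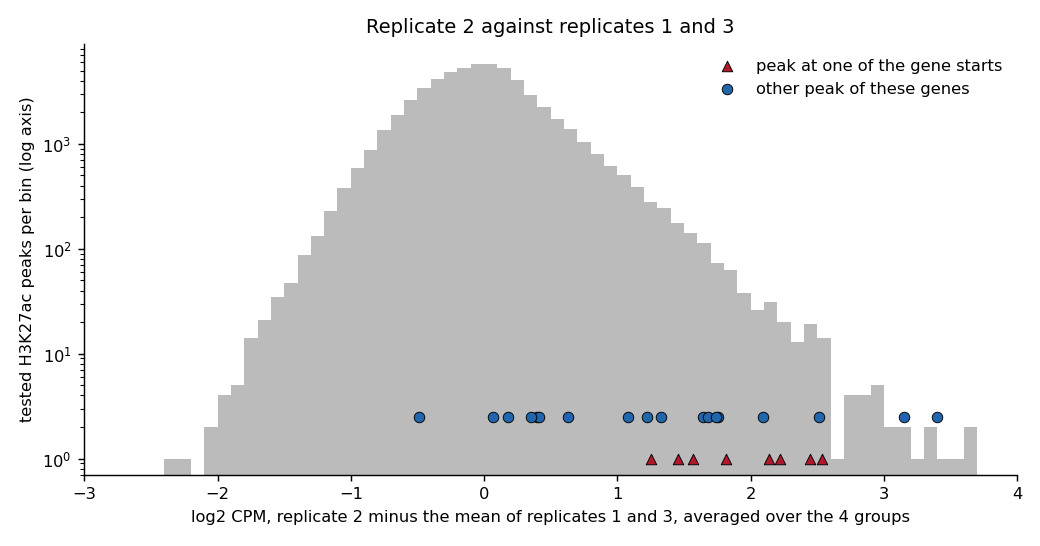
Distribution over all tested H3K27ac peaks of the log2 CPM of replicate 2 minus the mean of replicates 1 and 3, averaged over Cort, Dex, IL4 and vehicle (bars, log count axis), with the peaks at the 8 gene starts as triangles and the other peaks of these genes, with that over Mx1, as circles. The triangles lie between 1.25 and 2.53, while the median of all peaks is -0.03.

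Levels of the 8 starts were ordered in vehicle per kb of peak. Oasl1 was the highest at 14.6 ± 7.34 CPM per kb (SD, n = 3), followed by Stat2 at 11.9 ± 6.76, Isg15 at 9.81 ± 7.34, Ifih1 at 9.41 ± 6.11, Ifit3 at 8.25 ± 7.11, Ifit1 at 7.41 ± 6.46, Rsad2 at 4.89 ± 3.63 and Cxcl10 at 2.95 ± 2.35 CPM per kb. No neighbours in this order differed beyond their SD. The means rest on replicate 2: over vehicle replicates 1 and 3 they were 10.8 for Oasl1, 8.03 for Stat2, 5.89 for Ifih1, 5.58 for Isg15, 4.15 for Ifit3, 3.68 for Ifit1, 2.80 for Rsad2 and 1.60 for Cxcl10, with Ifih1 above Isg15. Among all gene-start peaks, Oasl1 stood at the 77.9th percentile of this level and Cxcl10 at the 7.01th.

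Cort and Dex were then compared with vehicle, each at its own dose. With edgeR's quasi-likelihood test, adjusted by Benjamini-Hochberg over all tested peaks and called at an adjusted p under 0.05, 1 of the 25 tested peaks was called with Cort (1.55% of all tested peaks were) and 1 of 25 with Dex (5.24% of all). Both calls were the same peak inside Ifih1, which fell. The median log2 fold change of the 25 peaks was 0.10 with Cort (0.00 over all tested peaks) and 0.16 with Dex (0.01 over all). Single libraries turned both medians: they were -0.78 without Cort replicate 2 and -0.66 without Dex replicate 2, and 0.77 with Cort and 0.80 with Dex without vehicle replicate 2. Without vehicle replicate 1 or 3 they were -0.10 to -0.06. These fits had no block, so leaving out 1 library of replicate 2 set a group lacking it against a group that kept it. No start peak passed. At Isg15, for example, the log2 fold change was -0.02 (95% interval -1.39 to 1.35) with Cort and 0.02 (-1.34 to 1.39) with Dex. Changes over 2-fold in either direction lay inside these intervals, whose width includes the spread between replicate numbers that the groups share. Isg15 had 23.0, 96.0 and 25.6 CPM in Cort replicates 1, 2 and 3 and 26.5, 91.8 and 29.5 CPM in vehicle. In Dex it had 25.9, 99.3 and 24.9 CPM. Each of these steroid libraries was within 2-fold of the vehicle library of its number. Because the replicate numbers paired the H3K27ac libraries, the fit was also made with the number as a block, where the call rate over all peaks was 12.6% with Cort and 20.3% with Dex and 1 and 2 of the 25 peaks were called. Without replicate 2 of any group, 1 of 18 tested peaks was called with each steroid.

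The peak inside Ifih1 (chr2:62634645-62636323) lies with its centre 10.8 kb into the gene from its start. H3K27ac there was 6.24, 9.27 and 5.72 CPM in Cort, 5.63, 8.92 and 6.14 CPM in Dex, 4.93, 4.62 and 3.25 CPM in IL4, and 15.2, 17.9 and 15.1 CPM in vehicle. Every treated library lay below every vehicle library, and replicate 2 was 0.61 (Cort), 0.59 (Dex), 0.20 (IL4) and 0.23 (vehicle) above replicates 1 and 3 on the log2 scale. The log2 fold change was -1.17 ± 0.24 (SE) with Cort (adjusted p = 0.0292 by edgeR), -1.21 ± 0.24 with Dex (adjusted p = 0.0117) and -1.93 ± 0.25 with IL4 (adjusted p = 0.00014). With IL4 this call held in each of 16 alternatives. With Cort the call was lost when Cort replicate 1 or 3, or vehicle replicate 1, 2 or 3, was left out (adjusted p 0.0629 to 0.132, log2 fold change -1.20 to -1.03). With Dex it was lost without Dex replicate 1 or 3 (adjusted p 0.0607 and 0.0614). With the block all 3 were called, at adjusted p of 4.45e-05, 1.18e-05 and 7.64e-09. No GR peak overlapped it.

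**Figure D3:**
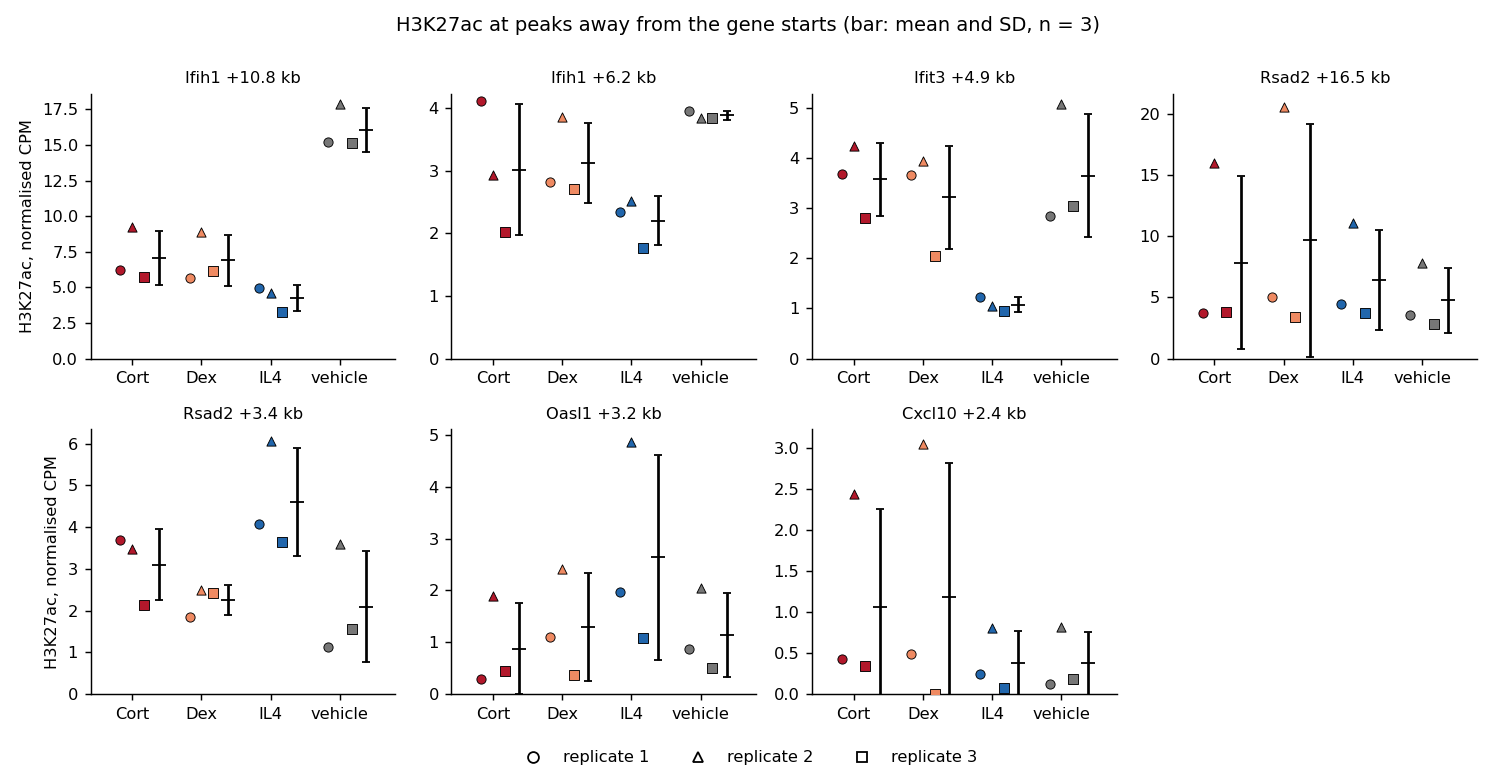
Normalised H3K27ac (CPM) at the 7 peaks away from the gene starts that passed in any contrast, named by gene and distance from its start, 1 point per library in Cort, Dex, IL4 and vehicle (marker: replicate number), with bars for the mean and SD of 3 libraries, drawn down to 0 at most. At the Ifih1 peak all treated libraries (3.25 to 9.27 CPM) lie below the vehicle libraries (15.1 to 17.9 CPM), and at the Ifit3 peak the IL4 libraries (0.948 to 1.23 CPM) lie below all others.

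Over the 12 libraries, the peaks whose log2 CPM was most like that of the Ifih1 peak lay near Marveld1 (Pearson r 0.978), Mecom (0.976), Armh3 (0.973), Kif15 (0.970) and Traf6 (0.970), out of 29941 peaks compared. These values describe likeness over the same libraries and share their depth and treatment groups. The log2 fold changes of the Marveld1 peak were -1.11 with Cort, -1.23 with Dex and -2.19 with IL4. Those of the Mecom peak were -1.56, -2.13 and -2.78. A peak in Traf6, which encodes a ubiquitin ligase of Toll-like receptor signalling, had -0.68, -0.77 and -1.53.

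Against vehicle, more peaks of these genes were called with IL4 than with either steroid. Of the 25 peaks 1 rose and 3 fell, while 27.6% of all tested peaks were called. The difference from that share was not tested. It rests on few peaks, and replicate 2 was the highest in all 4 groups at 16 of the 25, a spread that this fit counts as error. The median log2 fold change was -0.08 (-0.02 over all tested peaks), and it was -0.81 without IL4 replicate 2, 0.64 without vehicle replicate 2, and 0.14 and 0.28 without IL4 replicates 1 and 3. All 4 peaks lay away from the gene starts, in Ifih1, Ifit3 and Rsad2. With the block 6 of 25 were called, against 43.5% of all.

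In the Ifit3 gene, a peak 4.85 kb from the start (chr19:34588134-34588632) had 3.69, 4.25 and 2.81 CPM in Cort, 3.67, 3.94 and 2.05 CPM in Dex, 1.23, 1.05 and 0.948 CPM in IL4, and 2.85, 5.08 and 3.04 CPM in vehicle. The IL4 libraries lay below all 9 others. The log2 fold change with IL4 was -1.78 ± 0.34 (adjusted p = 0.00205), and the call held in each of 16 alternatives. With Cort it was -0.03 ± 0.31 and with Dex -0.20 ± 0.31, and neither passed (adjusted p = 0.988 and 0.791). Both Ifit3 GR peaks lie on this peak.

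A smaller peak in Ifih1 (chr2:62639632-62640531, 6.17 kb from the start) had 4.11, 2.93 and 2.02 CPM in Cort, 2.81, 3.86 and 2.70 CPM in Dex, 2.34, 2.51 and 1.76 CPM in IL4, and 3.96, 3.85 and 3.85 CPM in vehicle. IL4 libraries lay below those of vehicle, with a log2 fold change of -0.82 ± 0.28 (adjusted p = 0.0425). That call was lost when any 1 of the 6 compared libraries was left out (adjusted p 0.0577 to 0.171) and in DESeq2 (adjusted p = 0.0530). With the block its adjusted p was 0.00732.

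Inside Rsad2, a peak 3.44 kb from the start (chr12:26452503-26453532) had 3.69, 3.49 and 2.13 CPM in Cort, 1.84, 2.49 and 2.41 CPM in Dex, 4.07, 6.08 and 3.66 CPM in IL4, and 1.11, 3.60 and 1.55 CPM in vehicle. The IL4 libraries lay above the vehicle libraries, the nearest of them by little. It rose by 1.11 ± 0.38 on the log2 scale with IL4 (adjusted p = 0.0438), and this call was lost without IL4 replicate 1, 2 or 3 or vehicle replicate 1 or 3 (adjusted p 0.0555 to 0.165). With the block the adjusted p was 0.00158.

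The block also called peaks that the fit without it did not. A peak inside Oasl1 (chr5:114926063-114926803, 3.19 kb from the start) had 0.283, 1.88 and 0.449 CPM in Cort, 1.10, 2.41 and 0.365 CPM in Dex, 1.97, 4.86 and 1.08 CPM in IL4, and 0.867, 2.05 and 0.496 CPM in vehicle, on counts as low as 2. The IL4 library was the highest at each replicate number, with a log2 fold change of 1.20 ± 0.32 against vehicle (adjusted p = 0.0039 with the block, 0.259 without). Leaving out 1 library moved it between 0.38 and 2.02 in the fit without the block. At the Cxcl10 start the IL4 library was the lowest at each replicate number, with a log2 fold change of -0.77 ± 0.26 (adjusted p = 0.0171 with the block, 0.712 without). That change turned to 0.29 when vehicle replicate 2 was left out of the fit without the block, and it was -0.91 with the block and without replicate 2 of any group (adjusted p = 0.0106).

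With Dex the block added a peak downstream of Rsad2 (chr12:26438962-26440970, 1773 bp from the gene span). It had 3.69, 16.0 and 3.82 CPM in Cort, 5.02, 20.6 and 3.36 CPM in Dex, 4.44, 11.1 and 3.72 CPM in IL4, and 3.59, 7.78 and 2.85 CPM in vehicle. The log2 fold change with Dex was 0.85 ± 0.22 (adjusted p = 0.00757 with the block, 0.486 without). Without Dex replicate 2 it was -0.20 in the fit without the block, where vehicle kept its replicate 2. With the block and without replicate 2 of any group it was 0.34 (adjusted p = 0.416).

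**Figure D4:**
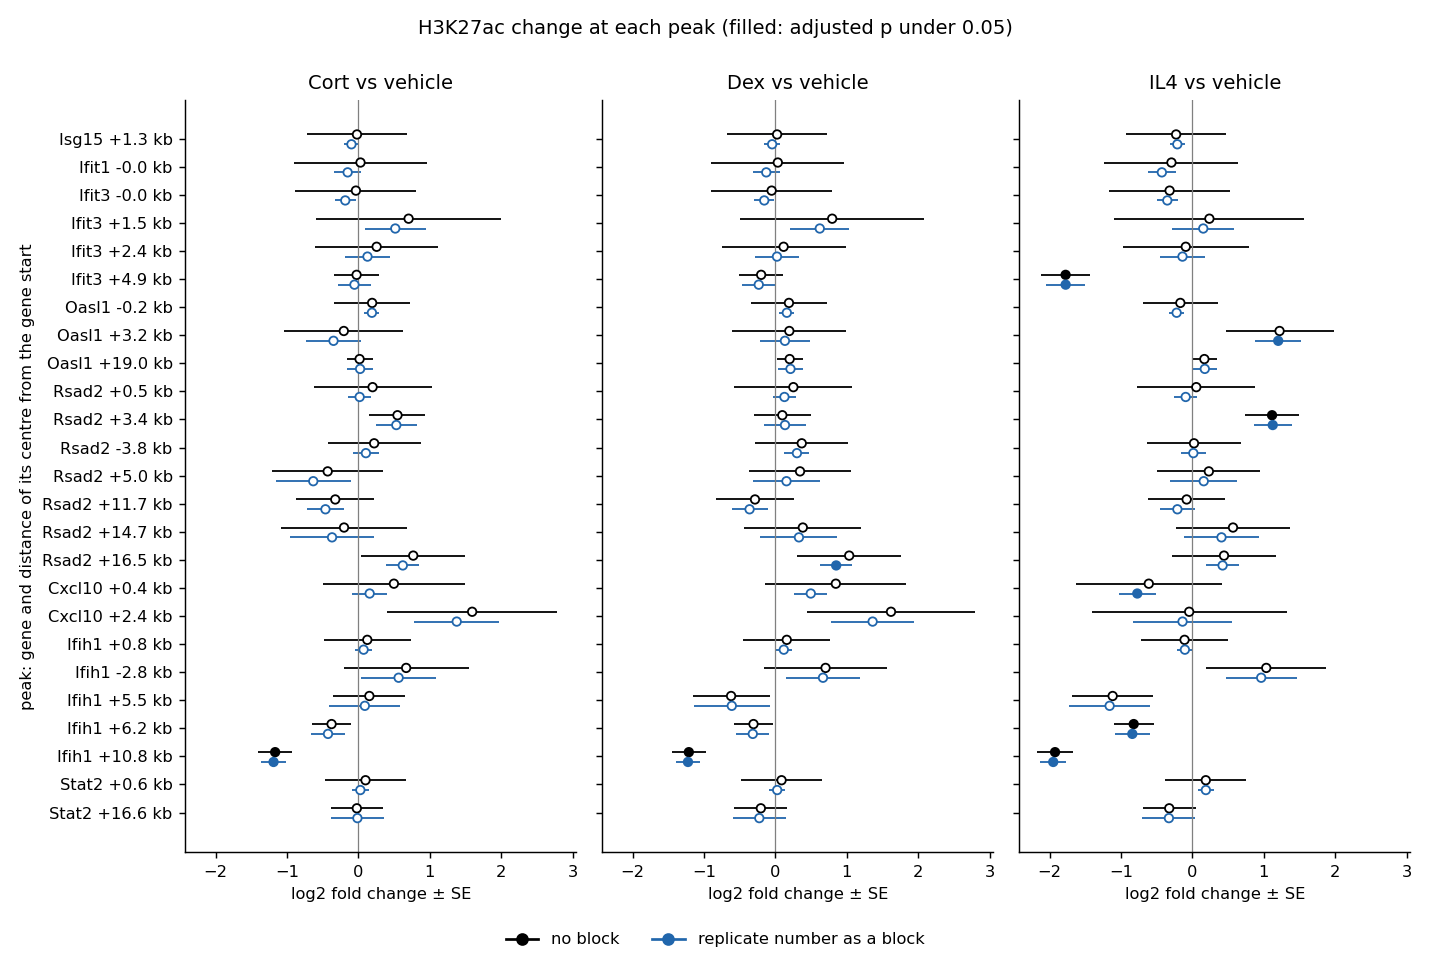
H3K27ac log2 fold change ± SE at each of the 25 tested peaks, named by gene and distance of the peak centre from the gene start, for Cort, Dex and IL4 against vehicle, without (black) and with (blue) the replicate number as a block; filled points have an adjusted p under 0.05. The Ifih1 peak at 10.8 kb is filled in all 3 panels (-1.17, -1.21 and -1.93), and the black error bars at the gene starts are several times the blue ones.

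The steroids were next set against IL4. Of the 25 peaks 2 were higher in Cort than in IL4 (25% of all tested peaks were called), and 1 was higher in Dex than in IL4 (26.7% of all). Both contrasts called the Ifit3 peak at 4.85 kb, with a log2 fold change of 1.75 ± 0.35 for Cort (adjusted p = 0.00251) and 1.58 ± 0.35 for Dex (adjusted p = 0.00448). The Ifih1 peak at 10.8 kb was higher in Cort by 0.76 ± 0.26 (adjusted p = 0.0441). This call was lost without Cort replicate 1 or 2 or IL4 replicate 1, 2 or 3 (adjusted p 0.0518 to 0.213). For Dex the difference at this peak was 0.71 ± 0.25 (adjusted p = 0.0536, and 0.00378 with the block). The 2 contrasts share the IL4 libraries and are not independent.

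With the block 6 peaks were called for Cort against IL4 (40.4% of all) and 7 for Dex against IL4 (42.7% of all). At the Cxcl10 start the steroid libraries were higher, by 0.93 ± 0.25 for Cort (adjusted p = 0.00503) and 1.27 ± 0.24 for Dex (adjusted p = 0.000198), where the fit without the block gave 0.470 and 0.321. In that fit the log2 fold changes turned to -0.72 without Cort replicate 2 and -0.39 without Dex replicate 2. With the block and without replicate 2 of any group they were 0.42 for Cort (adjusted p = 0.302) and 0.76 for Dex (adjusted p = 0.0336). At a weak peak 2.39 kb into Cxcl10 (chr5:92346277-92346726, no more than 38 counts in a library) they were 1.52 ± 0.60 (adjusted p = 0.0485) and 1.50 ± 0.59 (adjusted p = 0.0443). Without the block, leaving out 1 library moved them between 0.02 and 3.04 for Cort and between -0.90 and 3.07 for Dex, and the Cort call was made in 1 of 13 settings. At the Oasl1 start they were 0.41 ± 0.11 (adjusted p = 0.0035) and 0.38 ± 0.11 (adjusted p = 0.00542). The peak inside Oasl1 was lower, at -1.55 ± 0.34 for Cort (adjusted p = 0.000783) and -1.07 ± 0.32 for Dex (adjusted p = 0.00881). Without the block, leaving out 1 library moved these between -2.78 and -0.59 for Cort and between -1.94 and -0.19 for Dex. The Rsad2 peak at 3.44 kb was lower in Dex by -0.99 ± 0.27 (adjusted p = 0.00464, and 0.0636 without the block).

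The other member peaks passed in no contrast of either fit. They were 5 peaks of Rsad2 (with its start), 3 of Ifit3 (with its start), 3 of Ifih1 (with its start), both Stat2 peaks, the only peaks of Isg15 and Ifit1, and a downstream peak of Oasl1. At that Oasl1 peak (chr5:114941656-114942792), which is nearer to a predicted gene, replicate numbers were alike, with 6.80 to 7.46 CPM in Cort, 7.10 to 9.58 CPM in Dex, 7.76 to 8.05 CPM in IL4 and 6.20 to 8.03 CPM in vehicle. At an Ifit3 peak 1.53 kb from the start (chr19:34584774-34585338), vehicle replicate 1 had 0 counts and the libraries of replicate 2 had 36 to 68. A further Rsad2 peak (chr12:26453744-26453953) failed the filter on low counts, with 1 to 16 counts a library.

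The strongest GR peak of these genes lay at Oasl1, with 12583 reads over all libraries, followed by Isg15 with 550 and the others with 51 to 239. The Oasl1 GR peak (chr5:114922417-114922637) is centred 0.71 kb before the gene start, inside the H3K27ac start peak, and ranked 55 of 8394 by reads. Its normalised GR was 411, 292, 538 and 464 CPM in Cort replicates 1 to 4 and 325, 287, 443 and 480 CPM in Dex. It was 597, 779 and 757 CPM in IL4 and 650, 620, 711 and 1538 CPM in vehicle. Every steroid library lay below every vehicle library. With edgeR and batch as a covariate, GR there fell with Cort by 1.01 on the log2 scale (SE 0.23, adjusted p = 0.00586) and with Dex by 1.17 (SE 0.23, adjusted p = 0.00165).

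This direction depended on the scaling of the GR libraries. Scaled to the total count in peaks, the Oasl1 peak had 445 to 611 CPM in every library, and the log2 fold changes were -0.11 with Cort (adjusted p = 0.374) and -0.06 with Dex (adjusted p = 0.699). Total-count scaling put the median log2 fold change of all GR peaks at 0.96 with Cort and 0.86 with Dex, where the trimmed-mean scaling put it at 0.17 and -0.12. Within batch 1 the change was -0.70 with Cort (adjusted p = 0.0675) and -0.95 with Dex (adjusted p = 0.0174), and within batch 2 it was -1.30 with Cort (adjusted p = 0.148) and -1.36 with Dex (adjusted p = 0.131). Within batch 2 alone 0 of all 4714 tested GR peaks were called with either steroid. At the H3K27ac peak around it, the log2 fold change without the block was 0.19 ± 0.53 with Cort and 0.19 ± 0.53 with Dex. These errors include the spread between replicate numbers. Neither change was called, with or without the block.

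Of the 7 GR peaks 3 were called with Cort (27.6% of all tested GR peaks were), all lower, and 1 with Dex (30.3% of all). Besides Oasl1, the calls with Cort were an Rsad2 peak and an Ifit3 peak. The Rsad2 peak (chr12:26453999-26454093) had 2, 5, 1 and 0 counts in Cort, 8, 8, 2 and 1 in Dex, 1, 0 and 3 in IL4, and 4, 15, 0 and 1 in vehicle. Its fitted log2 fold change with Cort was -2.40 ± 0.76 (adjusted p = 0.0310), and it was lost without Cort replicate 1 or 2 or vehicle replicate 4 (adjusted p 0.0523 to 0.117) and without the batch term (adjusted p = 0.165). The Ifit3 peak (chr19:34588517-34588656) had 13, 19, 4 and 4 counts in Cort, 21, 23, 7 and 3 in Dex, 4, 9 and 5 in IL4, and 9, 17, 6 and 5 in vehicle. Its log2 fold change with Cort was -1.07 ± 0.36 (adjusted p = 0.0383). That call was lost without any 1 of Cort replicates 1 to 4 or vehicle replicates 2, 3 or 4 (adjusted p 0.0509 to 0.128), and no call at either peak remained with total-count scaling. The median log2 fold change of the 7 peaks was -1.01 with Cort and -0.88 with Dex, but -0.11 and 0.11 with total-count scaling.

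With IL4 0 of the 7 GR peaks were called by edgeR (0% of all tested GR peaks were), 1 had an unadjusted p under 0.05, and DESeq2 called 0. Over all GR peaks 612 had an unadjusted p under 0.05 and DESeq2 called 4. The comparison rests on 3 IL4 libraries of batch 2.

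GR at Isg15 differed mainly between the batches. The Isg15 GR peak (chr4:156199594-156200007, centred 1.02 kb inside the gene from its start) had 33.8 and 53.7 CPM in Cort replicates 1 and 2, 49.9 and 51.4 CPM in Dex, and 56.6 and 93.6 CPM in vehicle, all of batch 1. In batch 2 it had 5.08 and 2.25 CPM in Cort, 1.19 and 3.25 CPM in Dex, 2.73, 4.68 and 0.752 CPM in IL4, and 4.45 and 9.05 CPM in vehicle. The batches did not overlap, in any treatment. Batch 1 minus batch 2 was 3.70 on the log2 scale, which is the 97.4th percentile of tested GR peaks, and its log2 fold changes with Cort (-0.79, adjusted p = 0.204) and Dex (-0.91, adjusted p = 0.141) did not pass. Of the 7 GR peaks 6 were higher in batch 1, with a median difference of 1.77 on the log2 scale over the 7, against -0.01 over all tested GR peaks. The Oasl1 peak had the other sign, at -0.61. Library totals overlapped between batches (900063 to 1758222 counts in batch 1, 1289013 to 1981582 in batch 2), and the part of the batch in these peaks' levels was not tested.

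The remaining GR peaks, like that of Isg15, passed in no contrast of this fit. Among the peaks the authors marked as filtered, all 4 that belong to these genes were called lower with Cort, including the Isg15 peak and the Rsad2 peak at 5.82 kb. Calls were frequent in that fit: of all 2294 marked GR peaks tested, 729 were called lower and 600 higher with Cort. An Ifit3 peak (chr19:34588218-34588452) had 4.25 to 34.6 CPM in batch 1 and 1.19 to 11.3 CPM in batch 2. An Rsad2 peak at 5.82 kb (chr12:26450549-26450715) had 2.32 to 21.2 CPM in batch 1 and 0 to 6.46 CPM in batch 2, with a log2 fold change with Cort of -1.66 ± 0.61 (adjusted p = 0.0559). An Rsad2 peak at 12.2 kb (chr12:26444243-26444331) had 2.83 to 11.1 CPM in batch 1 and 0 to 4.10 CPM in batch 2. Ifih1, Stat2, Ifit1 and Cxcl10 had no GR peak by the rule, and the Mx1 span held 0. A GR peak on the Stat2 start was assigned to another nearest gene and was not counted.

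**Figure D5:**
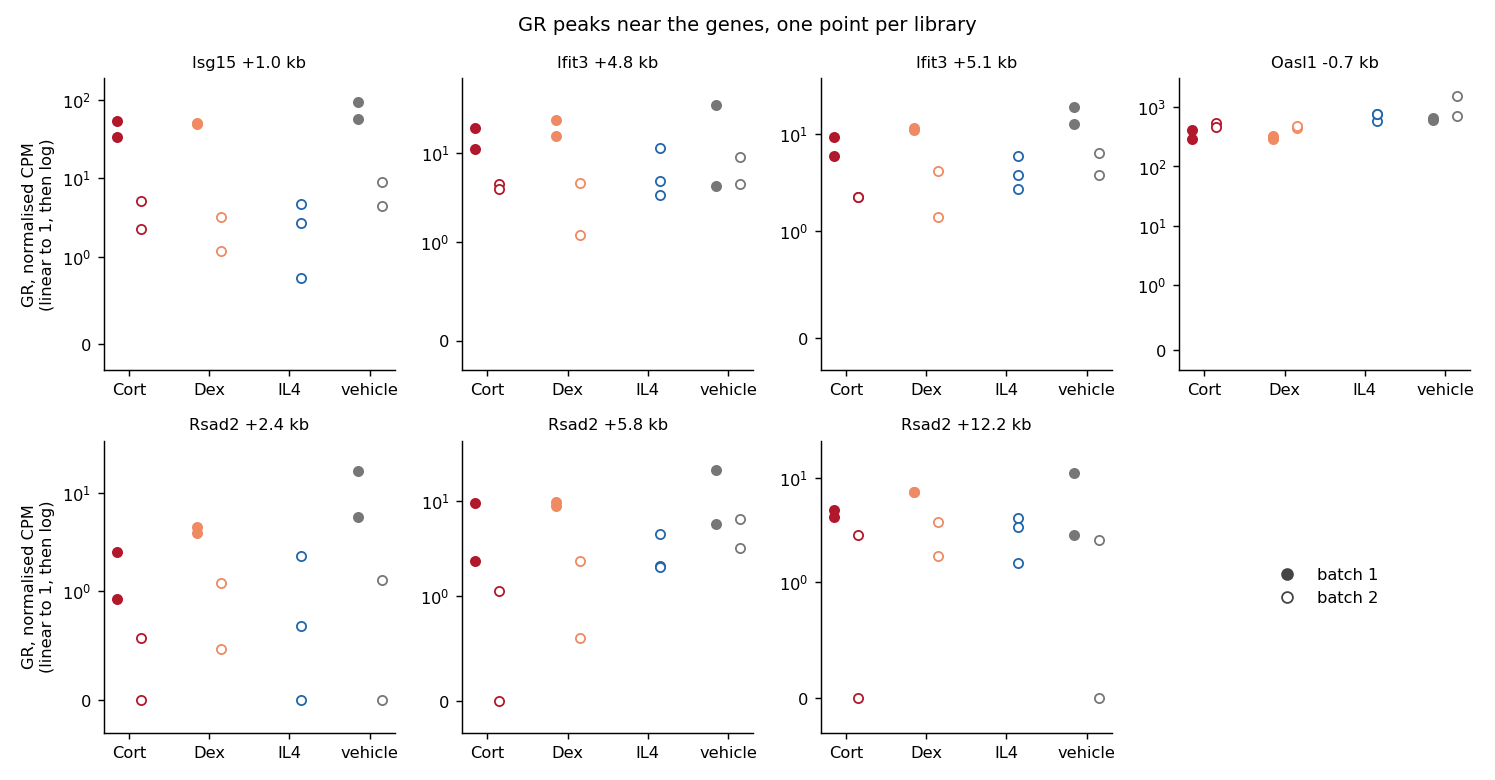
Normalised GR (CPM, linear to 1 and logarithmic above) at the 7 GR peaks of Isg15, Ifit3, Oasl1 and Rsad2, 1 point per library in Cort, Dex, IL4 and vehicle; filled points are batch 1 and open points batch 2, and IL4 has batch 2 alone. At Isg15 the batch 1 libraries (33.8 to 93.6 CPM) lie above all batch 2 libraries (0.752 to 9.05 CPM), and at Oasl1 the steroid libraries lie below vehicle with this scaling.

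Other genes of the pathway were read from a list of 71 receptors, transducers, sensors, adaptors and interferon-stimulated genes, of which 69 matched and 68 had 285 tested H3K27ac peaks. With Cort 2 of these peaks were higher and 0 lower (0.702% called), with Dex 7 were higher and 2 lower (3.16%), and with IL4 19 were higher and 39 lower (20.4%). All 3 shares were below those of all tested peaks (1.55%, 5.24% and 27.6%). The median log2 fold changes were 0.12 with Cort, 0.14 with Dex and -0.16 with IL4, beside 0.00, 0.01 and -0.02 over all tested peaks. The block put these medians at 0.07, 0.10 and -0.19, beside -0.003, 0.004 and -0.02 over all. With the block the counts were 23 higher and 9 lower with Cort, 36 and 12 with Dex, and 31 and 75 with IL4, shares of 11.2%, 16.8% and 37.2%, against 12.6%, 20.3% and 43.5% of all.

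The share called with IL4 among receptors and transducers was near that of all tested peaks. Of their 106 peaks IL4 raised 12 and lowered 20 (30.2% called, against 27.6% of all). Cort raised 2 (1.89%, against 1.55% of all) and Dex 5 (4.72%, against 5.24%), near Ifngr1 and Jak1. Those shares were also near those of all tested peaks. Jak1 and Ifnar2, and Traf3 among the adaptors, had peaks called in both directions with IL4, and the peak with the smallest p is described for each gene. Near Jak1, the kinase of the interferon receptors, a peak 11.1 kb from the gene had 3.86 ± 0.24 CPM in IL4 and 0.71 ± 0.12 CPM in vehicle (SD, n = 3 each; log2 fold change 2.42). Near Ifnar2, a chain of the type I receptor, a peak had 7.36 ± 0.85 CPM in IL4 and 23.6 ± 1.23 CPM in vehicle (log2 fold change -1.68). A peak in Usp18, the brake on that receptor, had 4.60 ± 0.47 CPM in IL4 and 1.30 ± 0.22 CPM in vehicle. Near Ifngr1, a chain of the interferon gamma receptor, H3K27ac was 46.7 ± 3.46 CPM in IL4 and 83.4 ± 9.51 CPM in vehicle. All 4 passed with IL4 (adjusted p 5.49e-05 to 0.000733 by edgeR).

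Among 57 peaks of sensors and adaptors, IL4 raised 4 and lowered 10 (24.6% called, against 27.6% of all). Dex raised 2, assigned to Tlr7, and lowered 1, assigned to Mavs (5.26% called, near the 5.24% of all). With Cort 0 were called (1.55% of all). A peak in Traf3, an adaptor of RNA and Toll-like receptor signalling, rose to 28.2 ± 4.51 CPM in IL4, against 13.4 ± 2.79 CPM in vehicle. In Tlr7, the endosomal sensor of single-stranded RNA, a peak rose to 4.57 ± 1.38 CPM in Dex, against 1.37 ± 0.13 CPM in vehicle (log2 fold change 1.72, adjusted p = 0.0112). Among 122 peaks of the other interferon-stimulated genes, IL4 raised 3 and lowered 9 (9.84% called), Dex lowered 1, and 0 were called with Cort by edgeR. With the block Cort raised 5 and lowered 4 of the 122, Dex 8 and 5, and IL4 8 and 29. These shares of 7.38%, 10.7% and 30.3% were below the 12.6%, 20.3% and 43.5% of all tested peaks. The peak lowered by Dex without the block lay 9.11 kb from Igtp, an interferon-induced GTPase, with 3.77 ± 1.69 CPM in Dex, 2.13 ± 0.58 CPM in IL4 and 9.82 ± 2.74 CPM in vehicle. Its log2 fold change was -1.38 with Dex (adjusted p = 0.0478) and -2.19 with IL4 (adjusted p = 0.00116), and with the block it was also called with Cort (-0.80, adjusted p = 0.00715). Near Ifitm3, which blocks viral entry, H3K27ac fell to 22.9 ± 4.22 CPM in IL4, against 53.5 ± 8.10 CPM in vehicle.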

How the data were processed

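The deposited files hold read counts per peak, 1 table for H3K27ac and 1 for GR, made by the authors. The submitters' processing notes name fastp, Bowtie2, SAMtools, MACS2, featureCounts and mm10, and their settings are not given in the sources used here. Columns marked C were taken as vehicle because every other column names its treatment. The input library was not analysed here.

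A peak was assigned to the nearest of 20014 named protein-coding genes (of 21900) within 50 kb. Members and gene lists were chosen with earlier results of these data known. Peaks were filtered with filterByExpr and scaled by TMM (trimmed mean of M values). They were tested with edgeR 4.0.16 quasi-likelihood tests in R 4.3.3 over all libraries of an assay. The GR model also held the batch. The call threshold was 0.05 on p-values adjusted by Benjamini-Hochberg. Standard errors were derived from each F statistic and its fold change. Dex was not tested against Cort, since their doses differ. The peaks described in full were those at a gene start and those called in any contrast, with or without the block.

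H3K27ac replicate numbers were taken as pairs because deviations from the group means correlated at 0.258 to 0.651 in all 18 same-numbered pairs. On simulated H3K27ac counts for Cort against vehicle (58966 peaks), 13.4% of 97 peaks with a log2 fold of 1 and 83.8% of 99 with a log2 fold of 2 were recovered. For GR (5623 peaks) it was 3.41% of 88 and 74.5% of 94. The simulated spread between libraries (biological coefficient of variation) was 0.25 at every H3K27ac peak and 0.4 at every GR peak. The values fitted to the data were 0.24 and 0.439. The simulated counts held no offset of a replicate number or batch, so they do not give the recovery at peaks with such an offset. Alternatives were DESeq2 1.42.0, other scalings and filters, the compared groups alone, the replicate block, single batches and leaving out each library. Leaving out replicate 2 of every group, the block with another scaling, GR batch 1 alone and predicted genes in the nearest-gene rule were chosen after seeing the data.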

Additional observations from a re-analysis of the deposited data

Results flagged for a closer look

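Among 21 groups of 4 GR libraries tested, 2 had a library far from the others, where chance marks about 1 in 20 groups. At the Ifit3 GR peak chr19:34588218-34588452, vehicle replicate 2 had 34.6 CPM and the other vehicle libraries 4.25 to 9.05 CPM. At the Oasl1 GR peak, vehicle replicate 4 had 1538 CPM and the other vehicle libraries 620 to 711 CPM. Vehicle replicate 4 also had the lowest scaling factor of the GR libraries, at 0.392.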

How the results depend on the processing

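Of the H3K27ac member peaks, the 1 call with Cort became 0 with the compared groups alone, and leaving out 1 library gave 0 to 1 calls with Cort and 0 to 1 with Dex. With the replicate block, which pairs the libraries, the 1 call with Dex became 2, also with the other scalings. The 4 calls with IL4 became 2 among the peaks the authors marked as filtered, 8 with the block and total-count scaling, and 2 to 3 without 1 library. The 2 calls of Cort against IL4 became 1 with the compared groups alone, among marked peaks, without replicate 2 of every group or at a log2 change of at least 1, 6 with the block, 5 with the block and another scaling, and 1 to 2 without 1 library. The 1 call of Dex against IL4 became 2 with the compared groups alone or total-count scaling, 7 with the block under each scaling, 5 with the block and without replicate 2, and 1 to 2 without 1 library. The block changed no other H3K27ac count by over 1.5 times. The 3 GR calls with Cort became 0 in batch 1 alone, with no filter or with total-count scaling, and 1 without the batch term. In batch 2 alone 1 member peak was tested and 0 were called, as were 0 of all 4714 GR peaks. Without the 1% of peaks with the most reads 5 member peaks were tested and 0 called. That fit leaves out the Oasl1 peak itself. The 3 calls became 1 with the replicate block, although the GR numbers did not pair (correlations -0.198 to 0.188), and 1 to 4 without 1 library. Among marked peaks 4 of 4 were called lower with Cort, as were 729 of all 2294 tested. The 1 GR call with Dex, at the Oasl1 peak, became 0 with total-count scaling and stayed 1 without any 1 library. It was also lost in batch 2 alone, where 0 of all 4714 GR peaks were called. The fit without the top 1% of peaks leaves out the Oasl1 peak, so its call could not be kept there. Among marked peaks 2 were called lower with Dex, as were 712 of all 2294 tested. The 0 GR calls with IL4 stayed 0 without any 1 library, and no block could be fitted there. Total-count scaling put the share of higher GR calls at 98.5% with Cort and 98.7% with Dex, against 46.3% and 48.5% with the trimmed mean. Of the single H3K27ac log2 fold changes called in either fit, 7 turned sign without 1 library, a replicate 2 in each case. Over the left-out libraries, Dex against vehicle at the downstream Rsad2 peak ranged between -0.20 and 1.57. At the Cxcl10 start IL4 against vehicle ranged between -1.75 and 0.29, Cort against IL4 between -0.72 and 2.24, and Dex against IL4 between -0.39 and 2.59. At the Oasl1 start these ranges were -0.13 to 0.95 for Cort and -0.24 to 0.95 for Dex against IL4. At the Cxcl10 peak at 2.39 kb Dex against IL4 ranged between -0.90 and 3.07. The H3K27ac fits with 1 library left out had no block. Without a replicate 2 they therefore set a group lacking it against a group that kept it. At each peak with a turned sign replicate 2 was the highest library in all 4 groups. What sets replicate 2 apart, and the cause of the other changes, were not tested. With 3 H3K27ac libraries a group, a missing call does not show that a peak was unchanged. Simulated recovery was 13.4% at a log2 fold of 1, on counts without an offset of replicate 2.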
